A study of Bos taurus with 9 samples.

Results

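Bovine morulae that had received KDM6A mRNA were compared with morulae that had not, in 6 of the 9 RNA sequencing libraries of the series, 3 per group. All embryos came from somatic cell nuclear transfer (SCNT), a cloning method in which a body cell is fused with an oocyte cleared of its own chromosomes. The donor cells of all groups were serum-starved fibroblasts from a Holstein fetus, and the oocytes came from abattoir ovaries. KDM6A morulae grew from reconstructed embryos given mRNA for wild-type bovine KDM6A 1 h after activation, and control morulae grew from reconstructed embryos that were not injected. Each library was made from a pool of 5 morulae on day 5. The controls were not given another mRNA, so KDM6A, the act of injection and the load of RNA cannot be told apart. A further 3 libraries of 8-cell SCNT embryos, labelled as controls and taken from an earlier series, are used only to show the level of a gene at an earlier stage. In those values the developmental stage cannot be told apart from the source. The morula files shared 16713 annotated genes, and the 9777 that reached 1 FPKM in 3 or more of the 6 morula libraries were tested. FPKM is a read level corrected for transcript length and library size. Sequencing depth is unknown, and nothing in the labels ties the pools of 1 group to different collection days or oocyte batches. The p-values therefore measure the spread between these samples, some of which may be technical.

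KDM6A, also called UTX, is an X-linked enzyme that takes methyl groups off lysine 27 of histone H3, a mark that Polycomb repressive complex 2 (PRC2) writes on silent developmental genes. It works within the KMT2C and KMT2D complexes, which methylate histone H3 lysine 4 at enhancers. In cattle the main wave of embryonic transcription starts around the 8-cell stage, after which maternal RNA is cleared, and the morula then compacts and sets apart its outer cells, the future trophectoderm. Donor cell chromatin carries repressive marks that the oocyte must undo before these genes can be used.

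KDM6A morula replicate 1 stood apart from its group. Its log2(FPKM + 1) values correlated at 0.982 to 0.983 with the 3 control libraries across the 9777 genes, and at only 0.975 and 0.970 with KDM6A replicates 2 and 3. Replicates 2 and 3 correlated at 0.989 with each other and at 0.962 to 0.977 with the controls. Control libraries correlated at 0.976 to 0.987. Each result below is therefore given with all 6 libraries and, where it differs, without this library. Summed FPKM over the shared genes ran from 913646 to 989916 per morula library, and 9471 to 9757 genes reached 1 FPKM. A list of oocyte and maternal genes had a mean log2 level of 3.62, 2.09 and 2.95 in control replicates 1, 2 and 3 and of 2.60 to 2.90 in KDM6A libraries, so the controls spread more widely in these genes than the injected pools did. All of these are bulk pools, in which fewer cells of a type and less RNA per cell cannot be told apart.

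**Figure D1:**
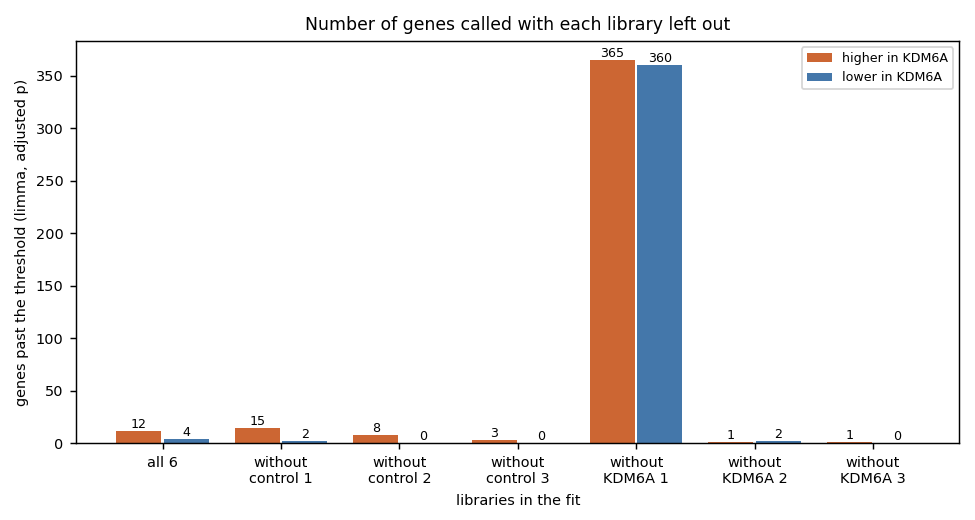
Number of genes past the threshold (limma, adjusted p below 0.05; vertical axis) in the fit of all 6 morula libraries and in fits with each library left out in turn (horizontal axis), with genes higher in KDM6A morulae in orange and lower genes in blue. The fit of all 6 gave 12 and 4, the fit without KDM6A replicate 1 gave 365 and 360, and the other fits gave at most 15 and 2.

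The transcript that was injected was measured first. KDM6A (ENSBTAG00000003740.5) stood at 10.72, 13.86 and 10.74 FPKM in control replicates 1, 2 and 3, and at 35.65, 87.58 and 79.44 FPKM in KDM6A replicates 1, 2 and 3. The groups did not overlap, and replicate 1, the library that resembled the controls, held the lowest injected level. The log2 fold change, always given as KDM6A minus control on the log2(FPKM + 1) scale, was 2.33 (SE 0.304, limma adjusted p = 0.0147). Without KDM6A replicate 1 it was 2.73 (SE 0.188, limma adjusted p = 0.000609), while permuting the 6 libraries exactly gave a two-sided p of 0.1, the lowest value possible with 3 per group. Control 8-cell embryos held 6.13 to 10.73 FPKM, close to the control morulae. FPKM does not tell injected from endogenous KDM6A transcript. The gene missed the threshold without control replicate 3 (limma adjusted p = 0.115), KDM6A replicate 2 (0.0847) or KDM6A replicate 3 (0.132).

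Among all genes tested, 12 rose (0.123%) and 4 fell (0.0409%) at an adjusted p below 0.05, together 16 (0.164%). A further measure that uses no variance model was the number of genes whose 3 libraries in one group all lay above the 3 in the other. It found 1536 genes (15.7%), of which 694 (7.1%) were higher and 842 (8.61%) lower in KDM6A morulae. Over all genes tested the median log2 fold change was -0.01, and the 5th and 95th percentiles were -0.56 and 0.60. An unadjusted p below 0.05 was found for 1244 genes (12.7%). A log2 fold change above 1 in either direction was seen in 1.53% of genes, 91 of them higher and 59 lower.

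**Figure D2:**
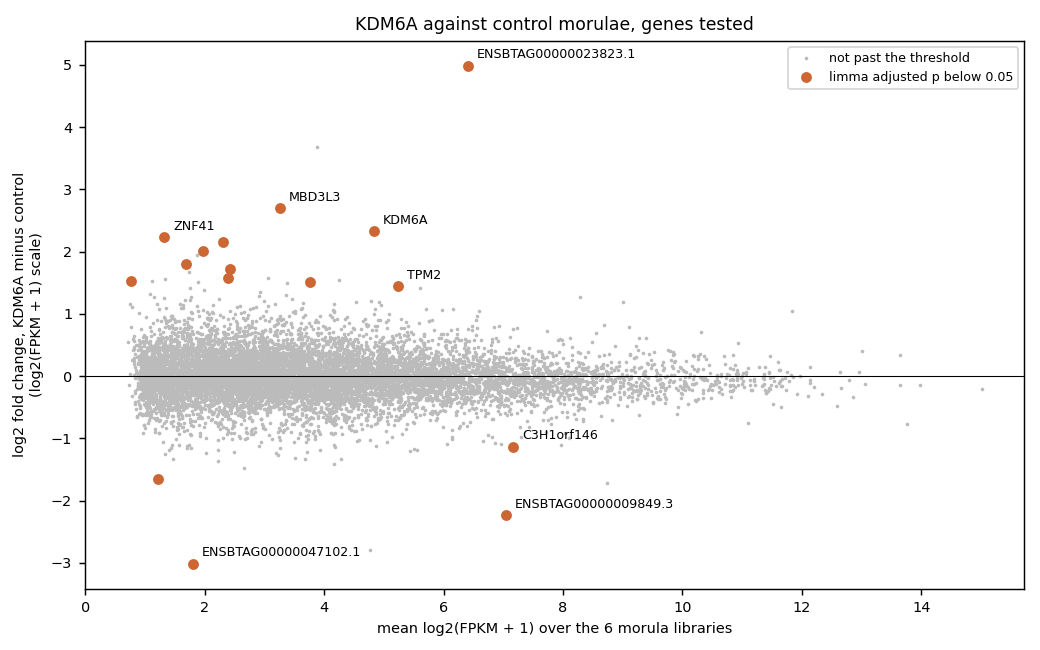
Log2 fold change of KDM6A against control morulae (vertical axis, log2(FPKM + 1) scale) against mean log2(FPKM + 1) over the 6 libraries (horizontal axis), 1 point per tested gene. The 16 genes past the threshold are in orange, with ENSBTAG00000023823.1 at 4.99 the highest and ENSBTAG00000047102.1 at -3.01 the lowest among them.

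The highest fold change belonged to a transcript whose name is uncertain. ENSBTAG00000023823.1 had 8.13, 17.64 and 19.18 FPKM in control replicates 1, 2 and 3, and 452.04, 336.47 and 719.46 FPKM in KDM6A replicates 1, 2 and 3. Every injected pool was far above every control, and KDM6A replicate 1 lay between the other injected pools. Mean FPKM was 33.5-fold higher. On the log2 scale this row differed by 4.99 (SE 0.329, limma adjusted p = 0.000135), and the difference passed the threshold in 11 of 12 alternatives. The morula files call this row CYCS, the name of cytochrome c, the electron carrier of mitochondria, and the 8-cell files call it LOC100847700. The name CYCS also belongs to ENSBTAG00000022613.3, whose level averaged 3849 ± 494 FPKM over the controls and 2707 ± 100 over the injected pools (SD, n = 3; limma adjusted p = 0.169), so the levels of the 2 rows differed in opposite directions. If the rows are near-identical copies, reads could be split between them, and that was not tested. The 8-cell libraries had 5.70, 0.38 and 0.00 FPKM in ENSBTAG00000023823.1, all below the control morulae.

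Several of the other rises were in genes whose RNA was abundant in 8-cell embryos and nearly gone from control morulae. MBD3L3 (ENSBTAG00000047612.1), one of the MBD3-like proteins, had 4.86, 3.57 and 0.95 FPKM in the controls and 28.88, 17.76 and 24.81 FPKM in KDM6A replicates 1, 2 and 3. Its level in 8-cell embryos was 526 ± 113 FPKM, so the injected pools lay above the control morulae and still far under the earlier stage. On the log2 scale MBD3L3 was higher by 2.70 (SE 0.367, limma adjusted p = 0.0147).

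ZNF41 (ENSBTAG00000002113.4), a zinc finger protein of the KRAB family, gave 0.41, 0.09 and 0.00 FPKM in controls, and its KDM6A morulae gave 5.02, 3.56 and 4.86 FPKM. Its 8-cell level was 123 ± 7.09 FPKM. On the log2 scale ZNF41 was higher by 2.24 (SE 0.229, limma adjusted p = 0.00574). All injected pools were above all controls, and replicate 1 was the highest of them.

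A few more rows of this kind carry no common gene name. ENSBTAG00000046425.1 rose from 1.48 ± 1.03 to 9.39 ± 0.341 FPKM, against 238 ± 103 FPKM in 8-cell embryos (limma adjusted p = 0.0147). LOC511494 (ENSBTAG00000034332.3) rose from 0.80, 0.96 and 0.48 FPKM to 6.30, 3.24 and 6.10 FPKM (limma adjusted p = 0.0213), against 93.92 to 257.44 FPKM in 8-cell embryos. LOC530538 (ENSBTAG00000001210.4) was listed at 0 in every control and at 2.29, 1.50 and 1.94 FPKM in KDM6A replicates 1, 2 and 3 (limma adjusted p = 0.0147), against 92.19 to 118.97 FPKM in 8-cell embryos. In these rows KDM6A replicate 1 was as high as replicates 2 and 3 or higher, which is not how it sat for the KDM6A transcript. PRSS33 (ENSBTAG00000034368.3), a serine protease, had 2.55, 1.85 and 1.56 FPKM in controls and 10.65, 7.51 and 8.25 FPKM in KDM6A morulae, with 8.19 to 23.71 FPKM in 8-cell embryos (log2 fold change 1.72, SE 0.226, limma adjusted p = 0.0147).

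Other rises showed no such 8-cell level. TNP2 (ENSBTAG00000032884.2), a transition protein that packs DNA in maturing sperm, had 7.44, 5.90 and 7.84 FPKM in controls and 18.46, 23.52 and 24.36 FPKM in KDM6A morulae, and at most 1.37 FPKM in 8-cell embryos (log2 fold change 1.52, SE 0.204, limma adjusted p = 0.0147). TPM2 (ENSBTAG00000011424.5), a tropomyosin that lies along actin filaments, had 29.36, 17.23 and 20.37 FPKM in controls and 56.77, 66.49 and 60.51 FPKM in KDM6A morulae, with at most 3.81 FPKM at the 8-cell stage (log2 fold change 1.45, SE 0.210, limma adjusted p = 0.0213). CD52 (ENSBTAG00000005628.2), a small surface glycoprotein known from lymphocytes and the epididymis, had 2.04, 1.95 and 2.13 FPKM in controls and 8.71, 10.27 and 5.82 FPKM in KDM6A morulae (log2 fold change 1.58, SE 0.234, limma adjusted p = 0.0234). The 8-cell libraries spread from 1.75 to 18.18 FPKM in CD52 and overlapped both morula groups. LOC107131205 (ENSBTAG00000046123.1) rose from 0.983 ± 0.320 to 7.12 ± 2.24 FPKM (limma adjusted p = 0.0147).

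Marker lists of other cell types were read beside TNP2 and CD52, and their part in these results was not tested. Of 21 sperm and testis markers, 12 were below 1 FPKM in all 6 libraries, among them the protamine genes PRM1 and PRM2 at 0 to 0.29 FPKM, and the summed level was 51.8 to 61.08 FPKM in controls and 62.6 to 90.48 in KDM6A morulae, in which TNP2 alone supplied 18.46 to 24.36. TNP1, the partner of TNP2, measured 3.01 to 8.03 FPKM across controls and 3.80 to 5.23 FPKM in KDM6A morulae. Of 17 leukocyte and blood markers, 10 were below 1 FPKM throughout, CD3E was at 0.21 FPKM or less, and the sums were 129.38 to 206.39 and 199.88 to 256.87 FPKM, most of it from the haemoglobin gene HBA at 102.59 to 219.69 FPKM. Donor fibroblast markers summed to 776.88 to 985.82 and 905.88 to 988.76 FPKM, with 14 of 25 below 1 FPKM in all 6 libraries, VIM at 0.19 to 0.64 FPKM and COL3A1 at 0.01 or less. Cumulus and granulosa markers summed to 22.78 to 25.56 and 23.13 to 28.58 FPKM, with 9 of 16 below 1 FPKM in all 6. Of the 6 cumulus and granulosa markers tested, 3 were above and 1 below all controls in every injected pool, a share of 66.7% against 15.7% of all genes (median 0.34), and none passed. VCAN, a matrix proteoglycan, was at 0.84 to 1.43 FPKM in controls and 2.06 to 3.25 in the injected pools (limma adjusted p = 0.239), and GJA1, a gap junction protein, at 3.02 to 4.11 and 4.55 to 5.76 FPKM (0.469). Of 6 tested leukocyte and blood markers, 2 were above and 1 below all controls, of 10 donor fibroblast markers 2 were above and none below, and of 8 sperm and testis markers TNP2 was the 1 above and none was below. These shares were 50%, 20% and 12.5%, against the same 15.7% of all genes.

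The genes that fell included C3H1orf146 (ENSBTAG00000027936.4), the cattle counterpart of a meiotic crossover gene known as SPO16. Its controls were at 215.61, 203.63 and 215.16 FPKM and its KDM6A morulae at 110.72, 89.02 and 89.12 FPKM, with 12.77 to 35.09 FPKM in 8-cell embryos. The spread within each group was small beside the gap, and the difference was -1.13 on the log2 scale (SE 0.151, limma adjusted p = 0.0147). ENSBTAG00000009849.3, a row without a symbol in the morula files and called PLAC8 (a placenta-associated cysteine-rich protein) in those of the 8-cell stage, had 230.74, 278.69 and 360.34 FPKM in controls and 92.40, 30.94 and 73.79 FPKM in KDM6A morulae (log2 fold change -2.24, SE 0.339, limma adjusted p = 0.0266). In 8-cell embryos it measured 0.28 to 1.64 FPKM, so its level in control morulae was the higher of the stages measured. A second row, ENSBTAG00000031750.1, carries the name PLAC8 as well, at 0.12 to 0.44 FPKM in the 6 morula libraries.

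The other falls were in rows without a name. ENSBTAG00000047102.1 had 15.11, 6.20 and 7.50 FPKM across controls and 0.05, 0.78 and 0.00 FPKM in KDM6A morulae, and was listed at 0 in the 8-cell libraries (log2 fold change -3.01, SE 0.334, limma adjusted p = 0.00798). ENSBTAG00000016277.6 fell from 4.15, 2.19 and 3.24 FPKM to 0.47, 0.13 and 0.33 FPKM (log2 fold change -1.66, SE 0.241, limma adjusted p = 0.0213). Both rows, and ZNF41, LOC511494 and LOC530538 among the rises, passed the level filter only through the group in which they were high, so among low genes of this kind only those that differed could be tested.

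Support for these calls came unevenly from the libraries. Without KDM6A replicate 1, 13 of the 13 that could still be tested passed, while ZNF41, LOC511494 and LOC530538 then fell under the level filter. Of those tested, 12 of 14 passed without control replicate 1, 4 of 14 without control replicate 2, 3 of 14 without control replicate 3, 3 of 13 without KDM6A replicate 2 and 1 of 13 without KDM6A replicate 3. The row named CYCS, ENSBTAG00000023823.1, passed in each of these fits.

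**Figure D3:**
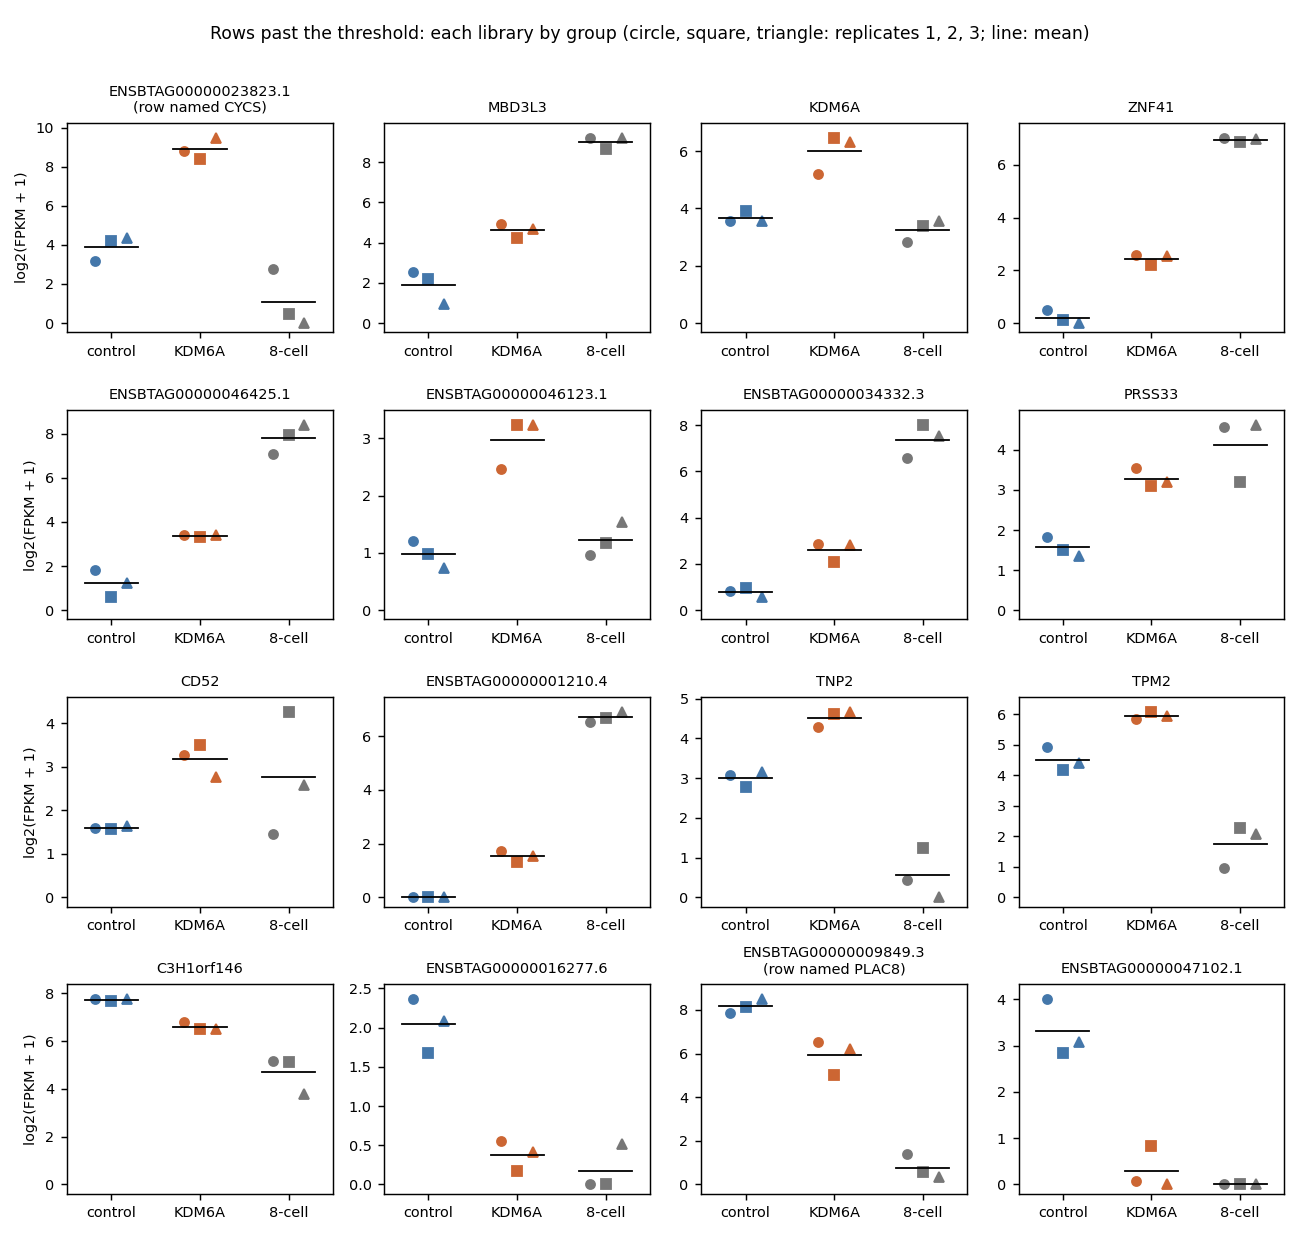
Level of each of the 16 genes past the threshold in every library, as log2(FPKM + 1) (vertical axis), in control morulae, KDM6A morulae and 8-cell embryos, with replicates 1, 2 and 3 as circle, square and triangle and the group mean as a line. MBD3L3, ZNF41, ENSBTAG00000046425.1, ENSBTAG00000034332.3 and ENSBTAG00000001210.4 are highest at the 8-cell stage and intermediate in KDM6A morulae, and the row named PLAC8 is highest in control morulae.

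Leaving out KDM6A replicate 1 changed the number of calls more than any other choice. Of 9596 genes then tested, 725 passed (7.56%), 365 higher (3.8%) and 360 lower (3.75%), with a median size of 1.05 and 0.98 on the log2 scale. This fit rests on 2 injected pools against 3 controls. Replicate 1 was set apart because it resembled the controls, so leaving it out favours a larger number of calls by construction. The adjusted p-values without it describe the other 5 libraries and are no independent support for a difference between the groups. In 139 of the higher and 154 of the lower genes, replicate 1 also lay on the injected side of all controls, so that the groups did not overlap over the 6 libraries. The genes named in the next paragraphs are described by all 6 libraries, with both adjusted p-values. Many of them were chosen because they passed without replicate 1 and did not overlap between groups. In those genes the lower adjusted p-value and the lack of overlap follow from the choice.

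Regulators of development and of the outer cell layer were among the lower genes, and only lower genes are described in this paragraph. Of 26 tested trophectoderm genes, 7 were below and 4 above all controls in every injected pool, with PTGES, FABP3 and FABP5 among those above. Together they made up 42.3% of the list, against 15.7% of all genes. GATA3 (ENSBTAG00000017243.5), a transcription factor of trophectoderm, had 7.04, 7.56 and 8.35 FPKM in controls and 3.29, 2.33 and 2.56 FPKM in KDM6A replicates 1, 2 and 3 (log2 fold change -1.22, SE 0.207, limma adjusted p = 0.0561 with all 6 libraries and 0.00895 without replicate 1). GATA2 (ENSBTAG00000019707.5), which acts beside it, had 2.44, 3.24 and 3.02 FPKM in controls and 0.93, 0.50 and 0.50 FPKM in KDM6A morulae (limma adjusted p = 0.0601 and 0.00993). GATA2 passed the level filter only through the controls, where it is high, and therefore had to differ to be tested. In both genes all 3 injected pools lay well under the controls, with replicate 1 the highest of the injected. MSX2, a homeobox repressor, showed a wider gap between injected pools, at 16.85, 16.72 and 17.36 FPKM in controls and 13.86, 4.37 and 3.68 FPKM in KDM6A replicates 1, 2 and 3 (limma adjusted p = 0.251 and 0.00295). CTGF, also called CCN2, a secreted matrix protein and a known target of YAP, had 29.95, 35.47 and 32.96 FPKM in controls and 18.25, 15.16 and 13.31 FPKM in KDM6A morulae (limma adjusted p = 0.0669 and 0.0096).

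Of 38 tested genes of adhesion, polarity and junctions, 1 was above and 5 below all controls in every injected pool (median -0.19), and without replicate 1, 1 passed as higher and 4 as lower. The share without overlap was 15.8%, near the 15.7% of all genes, so this count does not set the list apart. Without replicate 1, 13.2% of the list passed, against 7.56% of all genes. CDH1, the E-cadherin that holds compacting cells together, had 53.56, 51.10 and 43.72 FPKM in controls and 67.94, 93.40 and 79.38 FPKM in KDM6A morulae (limma adjusted p = 0.211 with all 6 libraries and 0.0269 without replicate 1). PRKCI, the atypical protein kinase C of the apical polarity complex, was lower, at 41.88, 51.37 and 51.84 FPKM in controls and 29.96, 20.05 and 22.97 FPKM in KDM6A morulae (limma adjusted p = 0.087 and 0.00993). OCLN, the tight junction protein occludin, measured 31.84, 30.67 and 32.83 FPKM across controls and 25.63, 17.43 and 19.46 FPKM in KDM6A morulae (limma adjusted p = 0.283 and 0.031). The groups did not overlap in any of these genes.

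Genes of meiosis and of the germline small-RNA pathway stood beside C3H1orf146 among the lower ones, a grouping made after their values were seen. TERB1, which tethers meiotic telomeres to the nuclear envelope, had 19.82, 8.66 and 13.83 FPKM in controls and 6.18, 5.82 and 4.52 FPKM in KDM6A morulae (limma adjusted p = 0.18 with all 6 libraries and 0.0402 without replicate 1). TDRKH, a Tudor-domain protein of piRNA processing, had 3.76, 3.72 and 3.95 FPKM in controls and 1.24, 1.16 and 1.21 FPKM in KDM6A morulae, a gap far wider than the spread of either group (limma adjusted p = 0.0605 and 0.0141). MAEL, another piRNA pathway protein, had 18.95, 14.26 and 25.77 FPKM in controls and 13.42, 7.80 and 9.55 FPKM in KDM6A morulae (limma adjusted p = 0.281 and 0.0343).

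Several lower genes make proteins that work in mitochondria, again a grouping made after their values were seen. MALSU1, an assembly factor of the mitochondrial ribosome, had 187.74, 194.09 and 164.33 FPKM in controls and 137.13, 70.75 and 62.60 FPKM in KDM6A morulae (limma adjusted p = 0.169 with all 6 libraries and 0.00339 without replicate 1). FDX1, a ferredoxin that passes electrons to mitochondrial enzymes, had 59.09, 80.56 and 72.79 FPKM in controls and 58.40, 24.49 and 19.41 FPKM in KDM6A morulae (limma adjusted p = 0.258 and 0.00405). GLRX5, which handles iron-sulfur clusters, had 46.81, 49.76 and 44.66 FPKM in controls and 38.57, 17.83 and 15.17 FPKM in KDM6A morulae (limma adjusted p = 0.246 and 0.00405). Replicate 1 sat below all controls in MALSU1, FDX1 and GLRX5 and far above replicates 2 and 3. MICU2, a subunit that gates the mitochondrial calcium uniporter, measured 31.86, 44.76 and 37.39 FPKM across controls and 31.49, 14.80 and 12.41 FPKM in KDM6A morulae (limma adjusted p = 0.276 and 0.00777). GCSH, the lipoyl carrier of the glycine cleavage system, was among the more abundant of these with 2849 ± 319 FPKM over the controls and 1685 ± 244 over the injected pools, with replicate 1 at 1966 FPKM (limma adjusted p = 0.0646 and 0.00903). Other genes for mitochondrial proteins were higher, so the direction was not shared. PDP2 had 4.79 ± 1.68 FPKM over the controls and 11.8 ± 3.93 over the injected pools (limma adjusted p = 0.207 and 0.0161). CPT1A had 3.59 ± 0.500 and 6.38 ± 1.52 FPKM (limma adjusted p = 0.298 and 0.0402). SOD2 had 4.96 ± 2.35 and 10.7 ± 0.774 FPKM (limma adjusted p = 0.224 and 0.0695).

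Single genes of stress and metal defence were among the higher ones, without a like shift of their lists. Of 25 tested genes of oxidant and metal defence, 4 were above and 1 below all controls in every injected pool (median 0.03), and 2 passed without replicate 1, both higher, a share near that of all genes. Of 33 heat shock, chaperonin and prefoldin genes, 3 were above and 8 below all controls (median -0.10), and 1 passed as higher and 2 as lower without replicate 1. PFDN4, a prefoldin subunit, was one of the lower ones, with 139.01, 155.41 and 178.52 FPKM in controls and 88.10, 80.25 and 68.87 FPKM in KDM6A morulae (limma adjusted p = 0.0552 with all 6 libraries and 0.00979 without replicate 1). MT2, a metallothionein that binds zinc and copper, had 281.79, 146.72 and 191.45 FPKM in controls and 433.26, 514.98 and 499.14 FPKM in KDM6A morulae (limma adjusted p = 0.0552 and 0.0133). HSPB1, a small heat shock protein, had 460.82, 411.14 and 385.36 FPKM in controls and 687.71, 696.20 and 779.67 FPKM in KDM6A morulae (limma adjusted p = 0.0552 and 0.0131). In MT2 and HSPB1 the 3 injected pools lay close together and replicate 1 was no exception. DUOXA2, which matures a hydrogen peroxide-producing oxidase, had 38.53, 25.84 and 23.85 FPKM in controls and 57.27, 98.32 and 84.39 FPKM in KDM6A morulae (limma adjusted p = 0.0601 and 0.00694). The galectin row LGALS7 went from 994 ± 119 to 1621 ± 102 FPKM (limma adjusted p = 0.0646 and 0.0142) and LGALS7B from 66.5 ± 11.1 to 138 ± 23.2 FPKM (0.0646 and 0.00869). If these 2 galectin rows are near-identical copies, the counting may have split their reads, and that was not tested. TIMP1, an inhibitor of matrix proteases that fibroblasts also make, measured 304.07, 303.28 and 278.75 FPKM across controls and 426.54, 472.66 and 544.85 FPKM in KDM6A morulae (limma adjusted p = 0.087 and 0.0141).

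BECN2 and UBTFL1 were higher and again more abundant at the 8-cell stage. A higher 8-cell level did not go with a single direction. OCLN, MBD2, TERB1 and MAEL were below all controls in every injected pool. Their 8-cell means of 249, 52.2, 32.4 and 29.9 FPKM were above their control morula means of 31.8, 13.5, 14.1 and 19.7 FPKM. BECN2, a relative of the autophagy protein beclin, had 4.26, 7.70 and 7.18 FPKM in controls, 18.23, 12.42 and 18.09 FPKM in KDM6A morulae and 1325 ± 679 FPKM in 8-cell embryos (limma adjusted p = 0.087 with all 6 libraries and 0.0335 without replicate 1). UBTFL1, a DNA-binding protein of the HMG-box family, had 6.95, 8.05 and 7.48 FPKM in controls, 9.85, 21.58 and 22.17 FPKM in KDM6A morulae and 31.7 ± 8.74 FPKM in 8-cell embryos (limma adjusted p = 0.227 and 0.00529). DDX17, an RNA helicase, did not share this 8-cell pattern and was high in KDM6A replicates 2 and 3 alone, with 5.94, 4.63 and 5.01 FPKM in controls and 6.61, 25.25 and 25.65 FPKM in KDM6A replicates 1, 2 and 3, and 5.43 ± 1.66 FPKM in 8-cell embryos (limma adjusted p = 0.246 and 0.0023). Other higher genes named by the same rule, and called without replicate 1, were CRABP2, TNFRSF12A, MKRN2, KRTDAP, PDP2 and SRPRA, with log2 fold changes of 1.07 to 1.58 over the 6 libraries. Other lower genes were NUCKS1, PKIA, NENF, MGAT4B, METTL27, ATP6V1B1, PEPD, BLOC1S4, C7orf31, NUPR1 and SAP30, with log2 fold changes of -1.42 to -1.02.

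**Figure D4:**
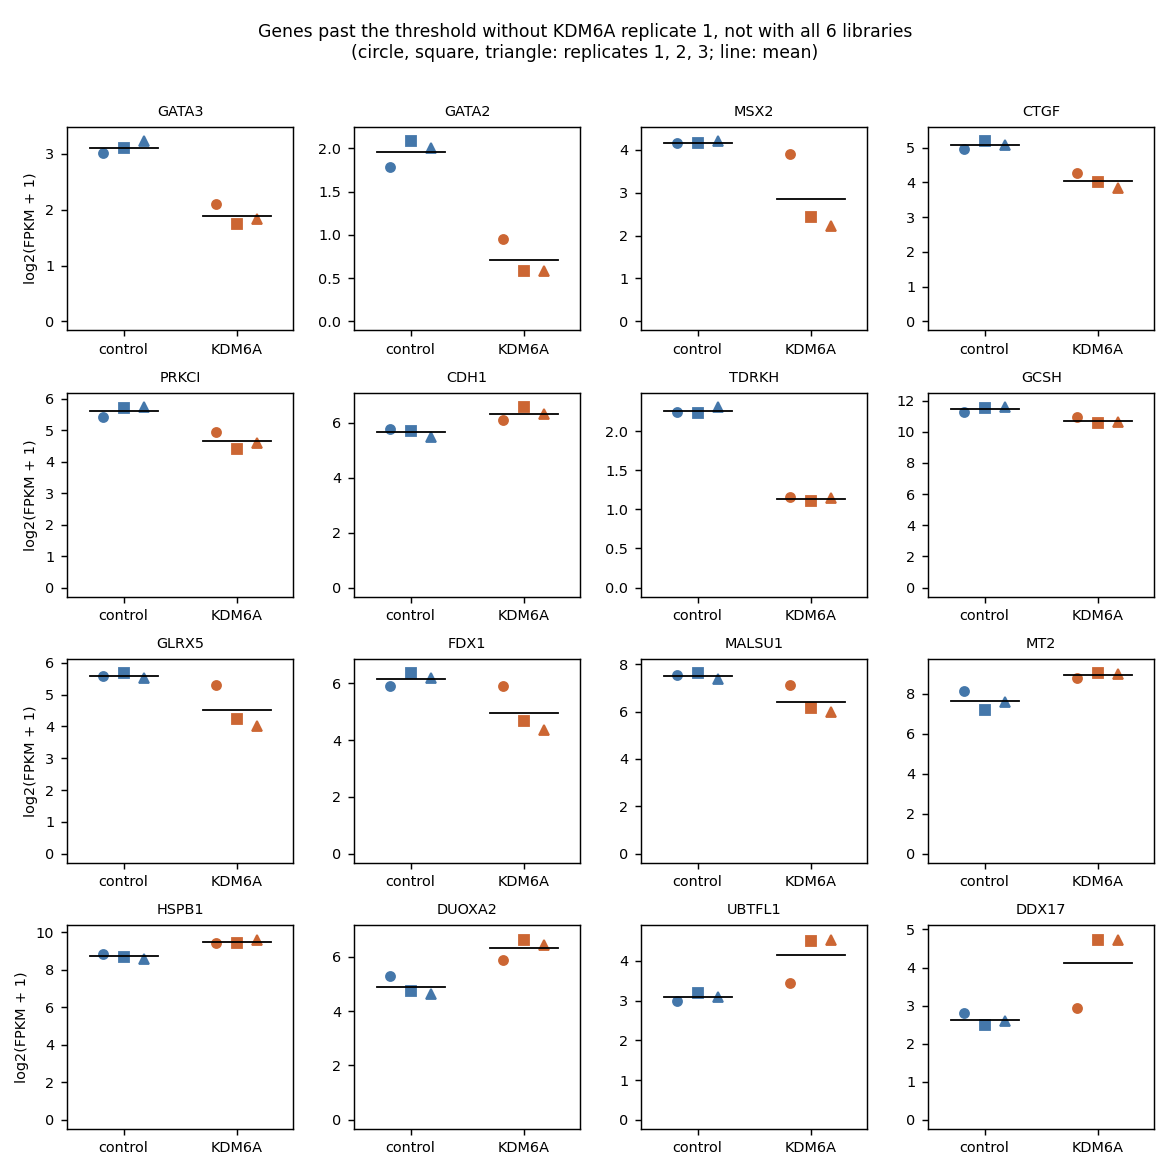
Level of 16 genes in every morula library as log2(FPKM + 1) (vertical axis) by group (horizontal axis), with replicates 1, 2 and 3 as circle, square and triangle and the group mean as a line. All passed the threshold without KDM6A replicate 1 and not with all 6 libraries; in GATA3, TDRKH, MT2 and HSPB1 replicate 1 lies with the other injected pools, and in MSX2, FDX1, GLRX5 and DDX17 it lies near the controls.

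Gene lists were read by counts and medians beside those of all genes, for which the median log2 fold change was -0.01, 15.7% of genes had groups that did not overlap, and 7.56% passed without KDM6A replicate 1. Among 11 tested genes of H3K27 demethylation and PRC2, KDM6A was the only one to pass with all 6 libraries, and the list median was 0.03. EZH2, the H3K27 methyltransferase, measured 20.62, 28.80 and 26.01 FPKM across controls and 23.92, 27.05 and 20.73 FPKM in KDM6A morulae. Its partners EED and SUZ12 also overlapped between groups, with log2 fold changes of 0.01 (limma adjusted p = 0.993) and 0.18 (0.735). Without replicate 1, KDM6A and LCORL, a PRC2 accessory protein, passed as higher and RBBP4, a histone-binding subunit shared by several complexes, as lower; RBBP4 measured 204.31 to 222.44 FPKM across controls and 224.14, 105.78 and 92.05 FPKM in KDM6A replicates 1, 2 and 3. KDM6B, the other H3K27 demethylase, measured 0.12 to 0.28 FPKM in all 6 libraries and was not tested, and KMT2D, EZH1 and SOX17 were also under the filter.

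The partners of KDM6A and the opposing complexes gave little. None of 8 tested KMT2C and KMT2D complex genes and none of 17 PRC1 genes passed with or without replicate 1, with medians of 0.06 and -0.04; KMT2C itself was at 33.70 to 50.53 FPKM across controls and 38.86 to 40.23 in KDM6A morulae. Among 19 SWI/SNF remodeler genes none passed with all 6 libraries, and 1 was higher and 2 lower without replicate 1. The latter made up 15.8% of the list, against 7.56% of all genes.

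Lists of enzymes acting on other chromatin marks had medians above that of all genes. Of 22 tested genes of H3K9 and H3K4 methylation, 5 had all injected pools above all controls and none had them below (median 0.13), none passed with all 6 libraries, and 3 of 21 passed as higher without replicate 1. The shares were 22.7% without overlap and 14.3% called without replicate 1, against 15.7% and 7.56% of all genes. KDM5B, an H3K4 demethylase, had 12.34, 10.63 and 10.04 FPKM in controls and 17.50, 19.68 and 23.22 FPKM in KDM6A morulae (limma adjusted p = 0.179 with all 6 libraries and 0.0248 without replicate 1). KDM4A, an H3K9 demethylase, had 26.49, 20.83 and 25.44 FPKM in controls and 26.53, 37.00 and 49.42 FPKM in KDM6A morulae, so replicate 1 was only just above the highest control (limma adjusted p = 0.34 and 0.0426). Of 11 genes of DNA methylation, MBD3L3 rose with all 6 libraries and 4 passed as higher without replicate 1 (median 0.16). In this list 1 member, MBD3L3, was above all controls in every injected pool, and 1, MBD2, was below. The shares were 18.2% without overlap and 36.4% called without replicate 1, against 15.7% and 7.56% of all genes. MBD2 had 12.45, 14.86 and 13.11 FPKM in controls and 7.19, 9.52 and 6.05 FPKM in KDM6A morulae (limma adjusted p = 0.248 and 0.0725). DNMT1, the maintenance methyltransferase, had 10.39, 5.86 and 8.57 FPKM in controls and 7.19, 25.06 and 25.96 FPKM in KDM6A replicates 1, 2 and 3, and TET1, which oxidises 5-methylcytosine, had 65.44 to 70.18 FPKM in controls and 65.40, 121.24 and 131.68 FPKM. Replicate 1 lay within the controls in DNMT1 and just below the lowest control in TET1 (limma adjusted p = 0.359 and 0.368), and the calls without it had adjusted p of 0.00897 and 0.0127.

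In the genome activation list, chosen for genes known to switch on around the 8-cell stage, MBD3L3 and ZNF41 rose among 23 tested. The groups did not overlap in 7 of the 23, 5 above and 2 below, and the median was 0.01. That share was 30.4%, against 15.7% of all genes. The list held 2 of the 12 rises. ZNF41 was tested only because its injected pools were high, so it adds no support to these counts.

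Lineage genes split. Of 26 tested trophectoderm genes none passed with all 6 libraries, 4 were above all controls and 7 below all controls in every injected pool, and the median was -0.22. Without replicate 1, 5 passed as lower and 2 as higher. The shares were 42.3% without overlap and 26.9% called without replicate 1, against 15.7% and 7.56% of all genes. GATA2 is counted among the 7 below and the 5 lower. It was tested only because its controls were high, so it adds no support to either count. GATA3, GATA2 and CTGF were lower as given above; SLC2A1, a glucose transporter, measured 31.6 ± 9.69 FPKM across controls and 16.6 ± 5.22 in KDM6A morulae (limma adjusted p = 0.283 and 0.0452), and PTGES, a prostaglandin synthase, was higher, at 110 ± 11.9 and 187 ± 27.2 FPKM (0.113 and 0.0413). KRT8, a keratin of the outer layer, and ATP1B1, a sodium pump subunit that serves blastocoel formation, were picked out after their values were seen. KRT8 measured 17.28, 12.30 and 20.99 FPKM across controls and 18.31, 7.21 and 4.51 FPKM in KDM6A morulae (limma adjusted p = 0.392 and 0.0173), and ATP1B1 at 6.38, 2.80 and 3.30 FPKM and 5.79, 12.29 and 12.47 FPKM (0.276 and 0.0187).

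Pluripotency genes overlapped between groups for the most part: of 20 tested, 1 did not overlap, and none passed with all 6 libraries. POU5F1 had 145.78, 167.03 and 123.91 FPKM in controls and 169.33, 83.98 and 66.02 FPKM in KDM6A replicates 1, 2 and 3 (limma adjusted p = 0.445 with all 6 libraries and 0.0178 without replicate 1). SPIC, an ETS-family factor, went the other way, at 150.64 to 179.32 FPKM in controls and 174.54, 289.20 and 405.68 FPKM in KDM6A morulae (limma adjusted p = 0.303 and 0.0116). NANOG measured 40.07 to 44.20 and 32.28 to 67.91 FPKM and SOX2 at 11.53 to 15.83 and 11.68 to 16.32 FPKM, with limma adjusted p of 0.682 and 0.833. Primitive endoderm genes had 3 of 14 above and 3 below all controls, a share of 42.9% against 15.7% of all genes. NID1, one of those above, had 0.50, 0.66 and 0.28 FPKM in controls and 1.04, 2.10 and 1.41 FPKM in KDM6A morulae. It was tested only because its injected pools were high, so it adds no support to that count. GATA6 was at 2.90 to 7.57 FPKM across controls and 6.01 to 10.46 FPKM in KDM6A morulae (limma adjusted p = 0.436). Among 12 tested Polycomb-target developmental regulators, 4 were below all controls in every injected pool, GATA2 among them, and none above (median -0.13). The share without overlap was 33.3%, against 15.7% of all genes. Of the 11 tested without replicate 1, 27.3% passed, against 7.56% of all genes. GATA3 and MSX2 passed as lower without replicate 1. GATA2 passed as well, but it was tested only because its controls were high, so it adds no support to either count.

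Lists of energy metabolism had medians below that of all genes. Of 73 nuclear genes of oxidative phosphorylation, 8 had all injected pools below all controls and none above, the median was -0.16, and 4 passed as lower without replicate 1, among them NDUFS4, a complex I subunit, at 298 ± 52.7 and 188 ± 8.74 FPKM (limma adjusted p = 0.179 with all 6 libraries and 0.0443 without replicate 1). The share with no overlap in this list was below that of all genes. Of 12 protein genes of the mitochondrial genome, 2 had all injected pools above all controls and 1 had them below. This was a share of 25%, against 15.7% of all genes. Without replicate 1, 4 of the 12 passed as lower and 1 as higher, 41.7% against 7.56% of all genes. ND2 had 16966.77, 19989.25 and 17684.82 FPKM in controls and 13733.61, 8788.31 and 10091.65 FPKM in KDM6A morulae (limma adjusted p = 0.0858 and 0.00477), and MT-ND4L had 3278.28, 2340.71 and 2169.80 FPKM and 4249.44, 4699.14 and 7364.49 FPKM (0.087 and 0.0141). These genes of the same compact genome thus lay on opposite sides. Overlapping transcripts on that genome could share reads, and whether this affected either gene was not tested. Glycolysis genes had 4 of 27 lower without replicate 1 (median -0.19 with all 6 libraries), and genes of glycine cleavage and one-carbon metabolism 3 of 20 (median -0.04). These were 14.8% and 15% of the lists, against 7.56% of all genes. The shares without overlap were 14.8% and 10%, against 15.7% of all genes.

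**Figure D5:**
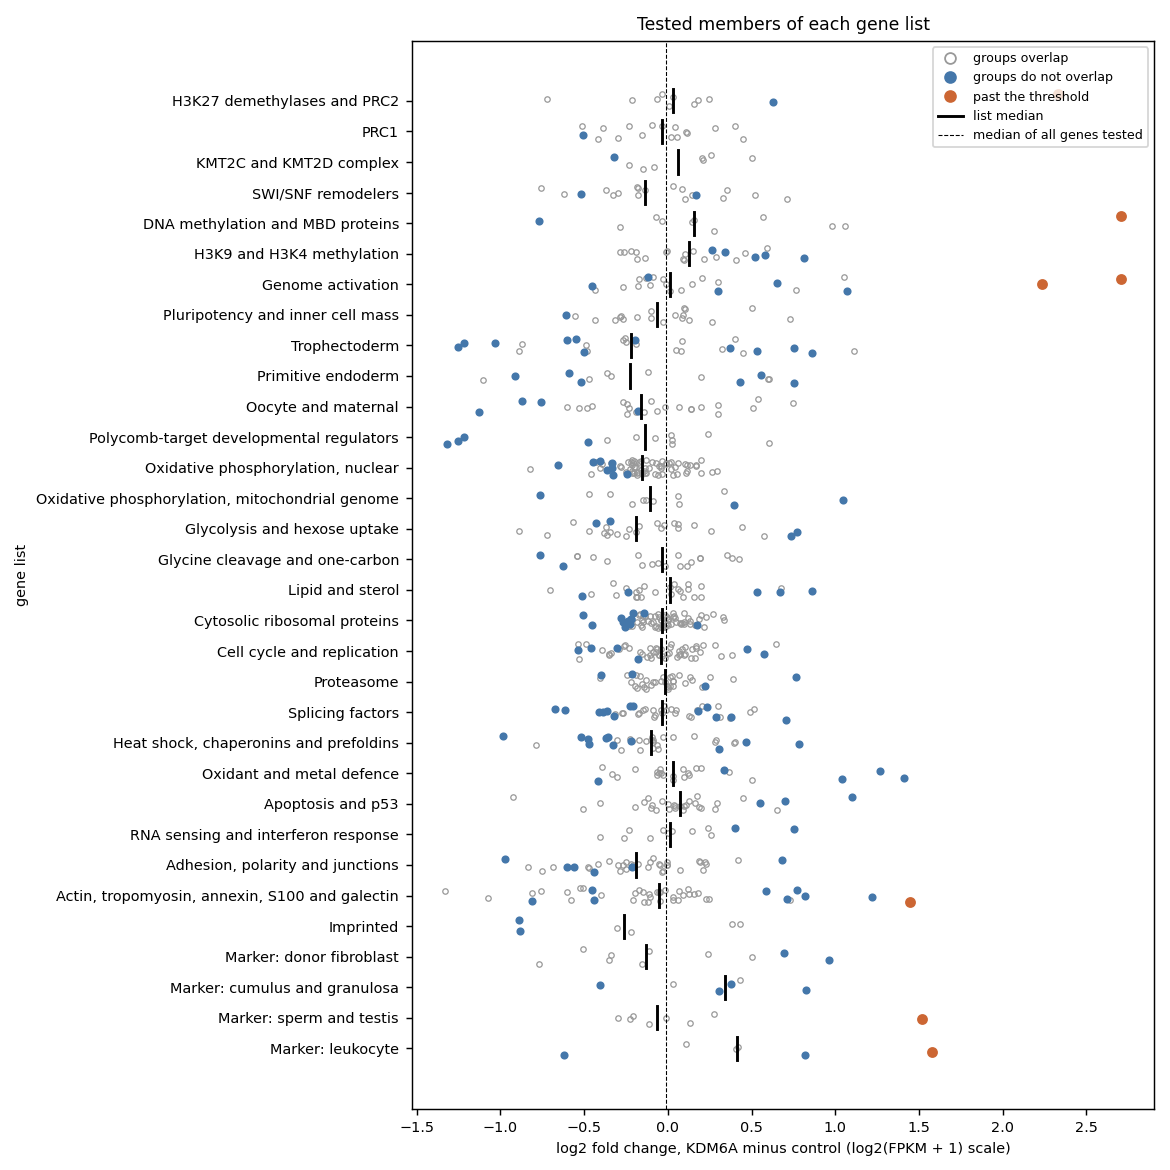
Log2 fold change of each tested member (horizontal axis, KDM6A minus control, log2(FPKM + 1) scale) of each gene list with 6 or more tested members (vertical axis); open points have overlapping groups, blue points do not overlap, orange points passed the threshold, black bars are list medians and the dashed line is the median of all genes. List medians run from -0.26 for imprinted genes to 0.41 for leukocyte markers, beside the dashed line at -0.01, and few orange points are seen.

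Structural genes held a split within one family. In the list of actin, tropomyosin, annexin, S100 and galectin genes, TPM2 rose among 43 tested, 6 members were above and 3 below all controls, and 5 passed as higher and 6 as lower without replicate 1. The shares were 20.9% without overlap and 25.6% called without replicate 1, against 15.7% and 7.56% of all genes. Other tropomyosins, singled out after their values were seen, lay on the other side of TPM2. TPM1 measured 145.65, 197.12 and 161.98 FPKM across controls and 152.03, 57.84 and 55.45 FPKM in KDM6A replicates 1, 2 and 3 (limma adjusted p = 0.281 with all 6 libraries and 0.0034 without replicate 1). TPM4 measured 289.16, 370.82 and 327.97 FPKM across controls and 373.90, 160.30 and 176.26 FPKM in KDM6A morulae (limma adjusted p = 0.409 and 0.0106). TPM2 was thus raised in all 3 injected pools, while TPM1 and TPM4 were low in replicates 2 and 3 alone. ANXA1, a membrane-binding annexin also singled out in this way, measured 26.94, 10.55 and 25.05 FPKM across controls and 15.16, 5.35 and 4.17 FPKM in KDM6A morulae (limma adjusted p = 0.287 and 0.0172).

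Housekeeping lists showed few calls. No member of the lists of 72 cytosolic ribosomal proteins, 55 cell cycle, 37 proteasome, 39 splicing, 33 heat shock and chaperone, 31 apoptosis and p53, or 12 RNA-sensing genes passed with all 6 libraries, and their medians lay between -0.10 and 0.07. The share of members whose groups did not overlap was 33.3% in the splicing list (5 above and 8 below all controls) and 33.3% in the heat shock list, against 15.7% of all genes. It was 16.7% in ribosomal proteins (1 above, 11 below), 10.9% in the cell cycle list (2 above, 4 below), 10.8% in the proteasome list (2 above, 2 below), 9.68% in the p53 list (3 above, none below) and 16.7% in the RNA-sensing list (2 above, none below). Lipid and sterol genes had 3 of 29 above and 2 below, and imprinted genes had none of 6 above and 2 below. Their shares without overlap were 17.2% and 33.3%, against the same 15.7%. Among the p53 list, CDKN1A, a cell cycle inhibitor, measured 1.30, 1.51 and 0.65 FPKM across controls and 4.66, 3.67 and 2.56 FPKM in KDM6A morulae (limma adjusted p = 0.158 and 0.0577), and GADD45A, a growth arrest gene, at 22.69 to 24.91 FPKM and 23.75, 10.72 and 6.97 FPKM (0.317 and 0.00922). IRF1, an interferon regulatory factor, measured 1.26 to 2.00 FPKM across controls and 3.12 to 3.51 FPKM in KDM6A morulae, without overlap and without a call (limma adjusted p = 0.251 and 0.0709). In the oocyte and maternal list, 4 of 25 tested members were below all controls and none above, with a median of -0.18. This was 16% of the list, against 15.7% of all genes. Control replicate 1 was highest and control replicate 2 lowest in the mean of this list. The part of maternal RNA in these differences was not tested.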

How the data were processed

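Values are FPKM per gene, computed by the authors and deposited as 1 table per library, per the file headers. The submitters' processing notes list the UMD3.1 build and 5 tools, namely RSEM 1.2.12, Bowtie2 2.2.5, StringTie 1.0.4, HISAT 0.1.6 and bcl2fastq 2.16. In what order they ran, which genes they dropped and how multi-mapping reads were counted is not given in the sources here. Annotated genes were joined by identifier. A further 3038 rows without an annotated identifier, all in control replicate 1, were left out. Symbols are those of the morula files or, where these are blank, of the 8-cell files.

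Fold changes and two-sided tests were computed with limma 3.58.1 (trended prior, R 4.3.3) on log2(FPKM + 1) over the 6 morula libraries, adjusted by Benjamini-Hochberg over all 9777 genes, with a threshold of 0.05. The log2(FPKM + 1) scale understates the change of low genes. On data simulated for this comparison with 9777 genes, 100 genes were shifted by 1 and 100 by 2 log2 units, of which 55% and 90% were called, beside 3 false calls. The shifted genes were drawn only from those whose mean log2 level matched 5 FPKM or more, so these rates do not cover lower genes. Noise was drawn independently for each gene and library. A shift shared by many genes of 1 library, as in KDM6A replicate 1, was therefore not simulated. Tables and figures used Python 3.11.15, pandas 2.3.3, numpy 2.4.6 and matplotlib 3.10.9.

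The text names every called gene; the 20 largest rises and 20 largest falls among symbols past the threshold without KDM6A replicate 1 whose 6 libraries do not overlap and whose higher group averages at least 5 FPKM; up to 4 members of each of 32 lists by smallest p; and a fixed set of chromatin and lineage genes. Genes the rule names may be left out. The comparison, its gene lists and its rules were chosen with earlier results of these data known, so list counts are descriptions. No list was tested as a set. Of 1122 list genes, 1007 were found and 791 tested. The 12 alternatives were leaving out each of the 6 libraries in turn, a block for the replicate number, scaling by median of ratios, quantile normalization, a pseudocount of 0.1, and a filter of 5 FPKM or none.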

Additional observations from a re-analysis of the deposited data

How the results depend on the processing

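Counts of calls moved with the processing and with single libraries. The 12 rises and 4 falls were 0 and 0 with no filter on low values (where 1580 genes had an unadjusted p below 0.05), 8 and 3 with a filter of 5 FPKM and 19 and 9 with quantile normalization. They were 12 and 4 with a pseudocount of 0.1 or median-of-ratios scaling. Leaving out each library in turn gave 1 to 365 rises and 0 to 360 falls, the highest of both without KDM6A replicate 1. Without control replicate 1 there were 15 rises and 2 falls, without control replicate 2 there were 8 and 0, without control replicate 3 there were 3 and 0, without KDM6A replicate 2 there were 1 and 2, and without KDM6A replicate 3 there were 1 and 0. The cause was not tested. Of the calls still tested, 3 of 14 passed without control replicate 3, 3 of 13 without KDM6A replicate 2 and 1 of 13 without KDM6A replicate 3.

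The labels state no pairing of libraries by replicate number. Deviations of same-numbered libraries from their group means correlated at -0.22, -0.24 and 0.16. With 3 libraries per group, these values cannot decide whether the libraries are paired. With the replicate number as a block, 1 gene rose and 0 fell at the threshold, against 1055 with an unadjusted p below 0.05, and 1 of the 16 calls passed.

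The KDM6A transcript kept its direction throughout, with log2 fold changes of 2.10 to 2.73 when a library was left out. At 2.33 its adjusted p was 0.153 with no filter and 0.0804 with the replicate block. The genes counted as groups that do not overlap, higher, numbered 1063 with no filter and 415 with a filter of 5 FPKM. With libraries left out they numbered 795 to 1789, and groups that do not overlap, lower, numbered 1009 to 2244. Among genes named in the text only EZH2 and EED changed sign, over fits that left out single libraries, in which EED ran from -0.071 to 0.16 and EZH2 from -0.20 to 0.0354 on the log2 scale. FPKM carry no depth, so counting error at low levels could not be set.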
